A study of Mus musculus with 8 samples.

Results

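miR-143 and miR-145 are microRNAs (miRNAs) cut from a single transcript, and both are used as markers of smooth muscle and of other contractile mesenchymal cells. They were found by their names on the array, mmu-miR-143 and mmu-miR-145, and are 2 of the 567 mouse miRNAs measured. Of the 2, miR-143 was detected on all 8 arrays and miR-145 on none.

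Liver RNA of male C57BL/6J mice, adult at the start, was hybridized to single-colour Agilent mouse miRNA arrays. The 5 CCL4 arrays came from mice injected intraperitoneally with carbon tetrachloride (CCL4) dissolved in olive oil, 1 at 4 weeks and 2 each at 6 and 8 weeks, and the 3 control arrays from mice that got the oil without CCL4, 1 per week of sampling. Both treatments were given more often in the first 4 weeks than in the later ones, and neither group carried a genetic change. Whether an array held the RNA of 1 mouse or of a pool is not stated in the sources used here, so n counts arrays and p-values measure the spread between arrays.

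Serum response factor and its partner myocardin drive the shared transcript in smooth muscle, where both miRNAs are known to favour the contractile over the proliferating state. In liver such cells lie in vessel walls, and stellate cells and portal fibroblasts take on contractile features when they become myofibroblasts during CCL4 injury. Hepatocytes make up most of the tissue and are not the usual source of either miRNA.

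The mature sequences below, from RefSeq (GRCm38.p6), belong to miRNAs that are set beside miR-143 in the results. They are shown because miR-125a-5p and miR-296-5p were among the 5 miRNAs with the pattern over arrays most like that of miR-143, and because miR-125b-5p, which is on the smooth muscle list, has the same seed as miR-125a-5p. The seed, bases 2 to 8, is in capitals. miR-125a-5p lies at chr17:17830817-17830840 (+ strand), miR-125b-5p at chr9:41581940-41581961 (+ strand) and miR-296-5p at chr2:174267093-174267113 (- strand).
mmu-miR-125a-5p: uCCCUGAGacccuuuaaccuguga
mmu-miR-125b-5p: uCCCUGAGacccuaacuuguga
mmu-miR-296-5p: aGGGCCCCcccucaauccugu

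On the mm9 build, the probe targets of miR-143 lay on chromosome 18 from 61808853 to 61808868 and those of miR-145 from 61807520 to 61807533, with 1319 bases between them. The RefSeq gene table (GRCm38) lists Mir143 and, on the same chromosome, the long noncoding RNA gene Carmn, whose synonym Mir143hg names it as the host gene of miR-143. The opposite strand product miR-145* was also on the array, with probe targets from 61807481 to 61807501 on chromosome 18. miR-143* was not among the names on the array.

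The series as a whole gave 117 to 158 detected miRNAs per array, and 113 were detected on every array. The liver label was checked with miR-122, the hepatocyte miRNA, whose signal was 18497 to 35101 in CCL4 liver and 24201 to 30018 in control liver. A single slide carried all 8 arrays, scanned once. The olive oil array of 4 weeks stood apart in that miR-1 and miR-133b, markers of striated muscle, were detected on it (signals of 22.1 and 11.6) and on no other array, and its part in the 4-week results was not tested.

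miR-143 was a weak but measured signal, and its brightest arrays were CCL4 arrays. Its signal before any scaling, with the error given by the scanner software, was 64.5 ± 5.35 on the CCL4 array of 4 weeks. The 6-week CCL4 pair gave 21.5 ± 3.27 and 34.2 ± 3.74, and the 8-week pair 54.0 ± 5.10 and 41.8 ± 5.28. The controls of 4, 6 and 8 weeks gave 21.3 ± 3.80, 18.2 ± 3.20 and 23.8 ± 3.47. The signals of 4 CCL4 arrays lay above all olive oil arrays, and replicate 1 of 6 weeks lay among them. Each signal was 5.61 to 12.0 times its own error.

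The means of these unscaled signals were 43.2 ± 16.7 (SD, n = 5) in CCL4 liver and 21.1 ± 2.81 (SD, n = 3) in control liver. Divided by the control of its own week, miR-143 gave ratios of 3.03 at 4 weeks, 1.18 and 1.88 for the 6-week pair, and 2.27 and 1.76 for the 8-week pair. All 5 ratios were thus above 1, and the spread among CCL4 arrays was wider than that among control arrays. Of single spots for miR-143, 88 of 100 on the CCL4 arrays and 29 of 60 on the olive oil arrays were called well above background.

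miR-143 was read by 2 probes, and both gave the same order of arrays at the extremes. The first probe, with a target of 15 bases, gave 26.0 on the CCL4 array of 4 weeks, 8.08 and 12.1 at 6 weeks, and 21.2 and 16.4 at 8 weeks. On the controls it gave 7.92, 6.42 and 9.54 in order of week. The second probe, with a target of 16 bases, was 1.48 to 1.84 times as bright as the first. On both probes the CCL4 array of 4 weeks was the brightest and the olive oil array of 6 weeks the dimmest.

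miR-145 was not detected on any array, and its signal lay at the background under both treatments. In CCL4 liver its signal was 1.75 at 4 weeks, -0.499 and -0.972 for the 6-week pair, and -1.24 and -1.93 for the 8-week pair. On the olive oil arrays it was -2.23, -2.85 and -0.927 at 4, 6 and 8 weeks. The error of these signals was 2.64 to 4.30, so every one of them lay within 1 error of 0. Not 1 of its 160 spots was called well above background, and 96 of them were below 0 after background subtraction.

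The strand miR-145* was not detected on any array either, with signals from -2.48 to 0.119 and 3 of 160 spots well above background. On 7 arrays the lowest signal of any detected miRNA was 5.59 to 8.16. That is no detection limit for miR-145, since miR-429 was not detected on any array at signals of 6.34 to 12.1 in CCL4 liver. A weak miR-145 level, also 1 above those lowest signals, could thus have gone uncalled. On the CCL4 array of 4 weeks the software called miRNAs detected at signals as low as 0.139. No fold, test or ratio of miR-145 to miR-143 is given, because miR-145 had no measured level in either group. Its probe targets were short, at 13 and 14 bases. Among the 74 miRNAs whose longest probe target was no longer than that, 28.4% were detected on at least 1 array, against 31.9% of the 486 with longer targets.

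**Figure D1:**
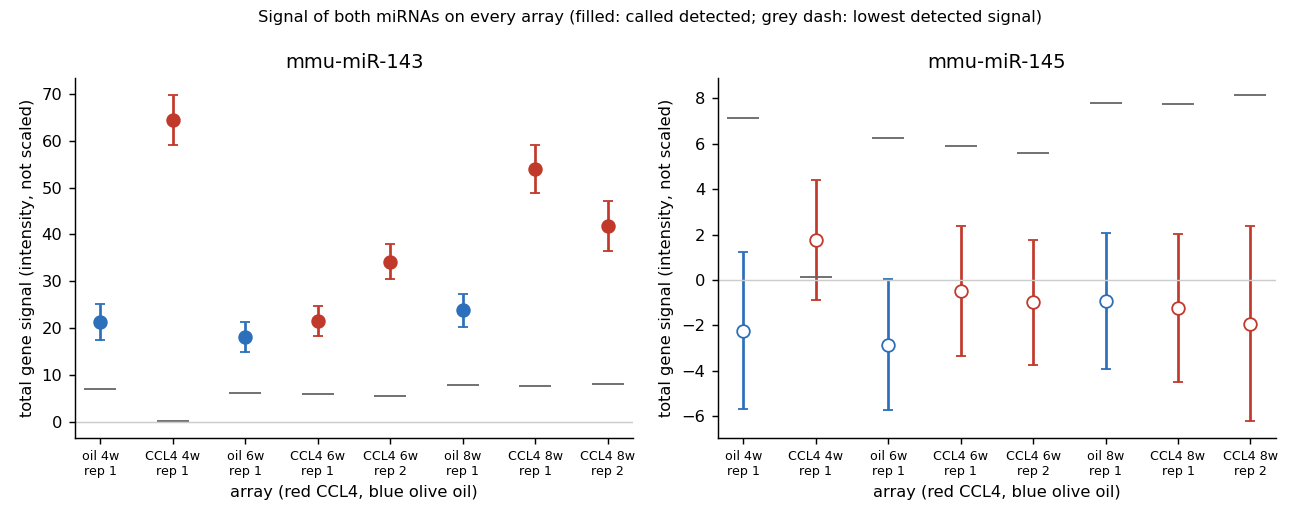
Unscaled total gene signal of miR-143 (left) and miR-145 (right) on each array, in red for CCL4 and blue for olive oil, with bars for the software's error, filled points where the miRNA was called detected, and a grey dash at the lowest detected signal of that array. miR-143 lies above the dash on all 8 arrays and reaches 64.5, whereas miR-145 is an open point within 1 error of 0 on every array.

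To compare arrays, signals were scaled to the 75th percentile over the 567 miRNAs of the array and put on a log2 scale (the study's methods give this percentile, with a floor set before the division rather than after it, and name no log2 step). That percentile was 4.71 to 6.48 for the controls and 6.53 to 11.0 for the CCL4 arrays, so the step lowered every CCL4 level relative to the controls. On all 3 olive oil arrays it was below the lowest detected signal, so it rested there on miRNAs that were not detected. On the 5 CCL4 arrays it was above the lowest detected signal of the same array, which at 4 weeks was 0.139. The 6-week CCL4 pair and replicate 2 of 8 weeks had 121, 136 and 123 detected miRNAs. These are fewer than lie above the 75th percentile of 567, so undetected miRNAs lay above it there too. The difference in the scale factor between the groups and the treatment cannot be told apart.

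After this scaling, miR-143 was higher on 4 of the 5 CCL4 arrays than on any olive oil array, but its change did not pass the threshold. Its log2 level was 2.76 on the CCL4 array of 4 weeks, 1.72 and 2.18 at 6 weeks, and 2.29 and 2.27 at 8 weeks. On the olive oil arrays it was 2.06, 1.95 and 1.88 at 4, 6 and 8 weeks. In order of level the CCL4 array of 4 weeks came first and the CCL4 pair of 8 weeks next. The CCL4 pair of 6 weeks spanned all 3 controls, so those conditions did not differ beyond the spread of that pair. Replicate 1 of 6 weeks was the lowest of all 8 arrays. Of the 133 miRNAs tested, 9.02% had every CCL4 array above every control and 43.6% had every one below, and miR-143 was in neither group.

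Over all weeks, miR-143 was 1.26-fold higher in CCL4 liver (log2 fold change 0.34, SE 0.18), with a 95% interval from 0.964-fold to 1.66-fold. limma's adjusted p was 0.122, which does not pass 0.05, and an exact two-sided permutation test of its level over 56 splits gave p = 0.268, where 0.0179 is the smallest p possible. The permutation test leaves week out and takes the plain difference of the group means, 0.28 in log2, whereas the limma fit has week as a factor. By the same limma test 13.5% of the tested miRNAs were higher and 35.3% lower. In bulk liver, fewer cells of a type and less RNA per cell cannot be told apart.

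The call turned on how the arrays were scaled and on 1 array. Without replicate 1 of CCL4 at 6 weeks the log2 fold change was 0.44 and passed (limma adjusted p = 0.0401). Without scaling miR-143 was 2.01-fold higher (log2 fold change 1.01, limma adjusted p = 0.00583), a comparison in which 25.6% of the tested miRNAs were higher. With the percentile taken over the 113 miRNAs detected on every array it was 1.45-fold higher (log2 fold change 0.54, limma adjusted p = 0.0200), with 15.8% of the tested miRNAs higher and 7.52% lower. On this last scale all 5 CCL4 arrays lay above all 3 controls, at -3.72 to -3.10 against -4.15 to -4.02, as did 15.0% of the tested miRNAs, and the exact permutation test gave p = 0.0179. With the median of the detected miRNAs (log2 fold change 0.34, limma adjusted p = 0.0780) or quantile normalization (0.35, limma adjusted p = 0.131) it did not pass. With either of the 4-week arrays left out, CCL4 or control, the value was 0.20 (limma adjusted p = 0.427 and 0.450).

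The distance of miR-143 from other miRNAs detected on every array was not touched by a scale factor common to an array. The median log2 fold change of the 113 miRNAs detected on every array was -0.36 with the scaling of the methods, 0.31 without scaling and -0.16 with the percentile of detected miRNAs. miR-143 lay 0.70 above that median on each of these scales. Of the 112 others detected on every array, 14 had a larger log2 fold change on each scale. Of all other tested miRNAs, including those at the floor on some arrays, 22 did with the scaling of the methods or none and 21 with the percentile of detected miRNAs.

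**Figure D2:**
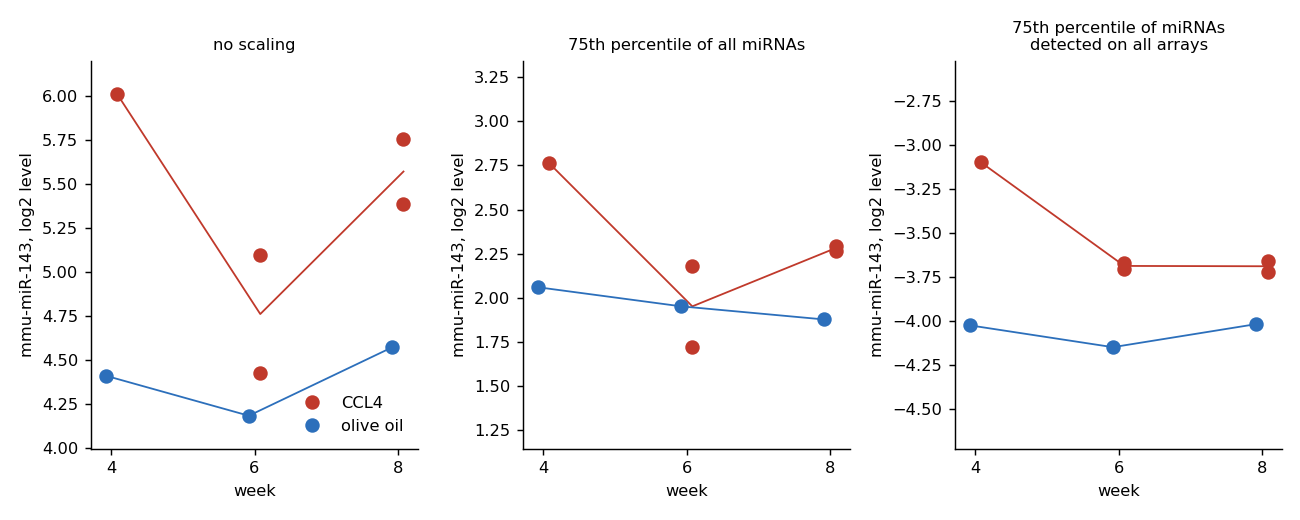
Log2 level of miR-143 on each array against week, in red for CCL4 and blue for olive oil with lines through the weekly means, without scaling (left), scaled by the 75th percentile of all miRNAs (middle) and scaled by that of the miRNAs detected on all arrays (right), with axes of equal span. The CCL4 pair of 6 weeks straddles the controls in the middle panel (1.72 and 2.18), and all CCL4 points lie above all controls in the right panel.

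By week, the difference between CCL4 and olive oil liver was widest at 4 weeks, where there was 1 array of each. miR-143 was 1.63-fold higher at 4 weeks (log2 fold change 0.70, SE 0.33, limma adjusted p = 0.0662). At 6 weeks it was level with the control, at 1.00-fold (SE 0.28 in log2, limma adjusted p = 0.999), and at 8 weeks it was 1.32-fold higher (log2 fold change 0.40, SE 0.28, limma adjusted p = 0.551). The 3 values did not pass a test for a difference between weeks, since the interaction of treatment and week had a limma adjusted p of 0.684.

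At 4 weeks 12.0% of the tested miRNAs were called higher and 33.1% lower, at 6 weeks 6.02% and 3.01%, and at 8 weeks 6.02% and 0.752%, while the interaction called 6.02%. miR-143 was not in any of these. Relative to the median of the miRNAs detected on every array, which no common factor moves, it lay 1.26 higher at 4 weeks, 0.45 higher at 6 weeks and 0.54 higher at 8 weeks on the log2 scale. There were 17, 23 and 20 tested miRNAs with a larger log2 fold change at 4, 6 and 8 weeks, or 16, 22 and 20 with the percentile of detected miRNAs. Quantile normalization, which is no common factor, gave distances of 1.01, 0.16 and 0.33, with 18, 32 and 23 tested miRNAs above.

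The value at 4 weeks passed the threshold with the percentile or the median of the detected miRNAs (log2 fold change 0.92 and 0.83, limma adjusted p = 0.0116 and 0.00896) and without scaling (1.60, limma adjusted p = 0.00906). At 6 weeks only the percentile of the detected miRNAs gave a value past it, of 0.46 (limma adjusted p = 0.0499). At 8 weeks none of the scalings did. With 1 array per treatment, the 4-week test has no spread of its own and takes that of the CCL4 pairs of 6 and 8 weeks, so a pass there gives no replicate check of the 4-week difference. With the scaling of the methods, limma gave the tested miRNAs the same SE within a week, 0.33 at 4 weeks and 0.28 at 6 and 8 weeks. That spread was thus pooled over miRNAs and is not that of miR-143 itself.

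**Figure D3:**
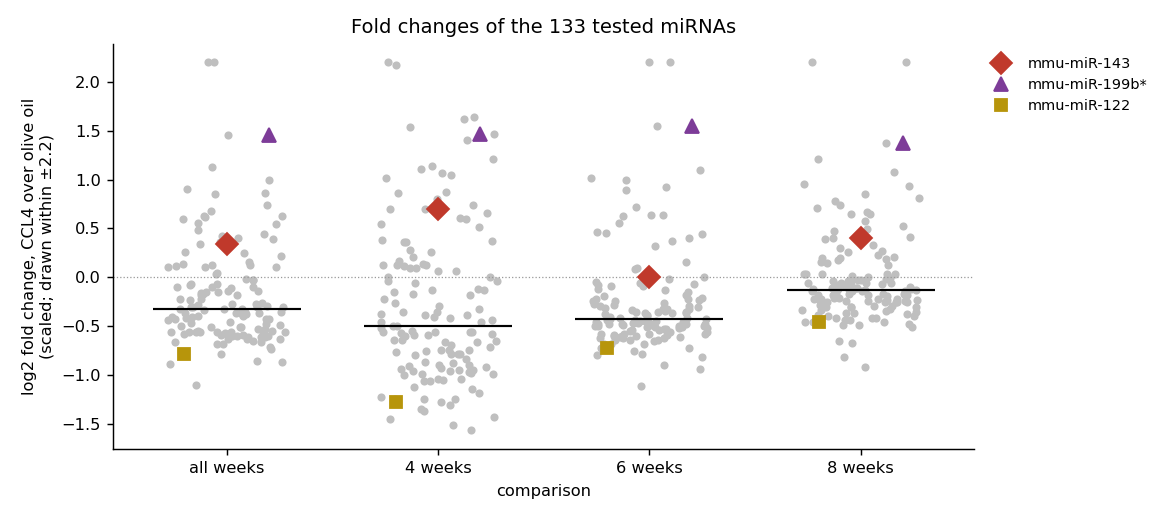
Log2 fold change of CCL4 over olive oil liver for the 133 tested miRNAs (grey points, drawn within ±2.2, black line at their median) over all weeks and at each week, after scaling by the 75th percentile of all miRNAs, with miR-143, miR-199b* and miR-122 marked. miR-143 lies above the median line in all 4 columns, at 0.34, 0.70, 0.00 and 0.40, above miR-122 and below miR-199b*.

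A change in the ratio of miR-143 to another miRNA of the same array needs no scaling factor, so miR-143 was set against 5 others that stand for cell types or for the smooth muscle list. They were chosen after values had been seen, so the p-values describe the ratios and are no independent support for a change of miR-143. miR-122 had a log2 fold change of -0.78, with 128 tested miRNAs above it, so a higher ratio to it was likely in advance. miR-199b* was the member of the mesenchymal list with the largest rise among those detected on every array, so its ratio is given as a description. P-values are from exact two-sided permutation tests over 56 splits, which leave week out, adjusted over these 5 with miR-199b* included. The low exact p of miR-199b* makes the adjusted p of the ratios to miR-122, miR-126-3p and miR-21 lower than without it. Relative to miR-122 of hepatocytes, miR-143 was 2.03-fold higher in CCL4 liver (log2 difference 1.02, exact p = 0.0179, adjusted p = 0.0298). Relative to miR-126-3p of endothelial cells it was 1.58-fold higher (log2 difference 0.66, exact p = 0.0357, adjusted p = 0.0446). In both ratios all 5 CCL4 arrays lay above all 3 controls.

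Relative to miR-142-3p of leukocytes, miR-143 was 1.35-fold higher and did not pass (log2 difference 0.43, exact p = 0.0893, adjusted p = 0.0893), with 4 of 5 CCL4 arrays above all controls. Relative to miR-21, which is raised in proliferating smooth muscle and in fibrosis, it was 1.33-fold higher (log2 difference 0.41, exact p = 0.0179, adjusted p = 0.0298, 5 of 5 arrays). Against miR-199b*, whose choice fixed the direction, the ratio was 0.448 of its control value (log2 difference -1.16).

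After quantile normalization or normexp background correction with an offset of 50, which change weak and strong signals unequally, none of the 5 passed (adjusted p from 0.0893 to 0.893, exact tests). The log2 difference to miR-122 was then 0.32 and 0.41, that to miR-126-3p 0.23 and 0.032, and with normexp those to miR-142-3p and miR-21 turned to -0.13 and -0.24. Leaving out 1 array kept the log2 differences at 0.76 to 1.14 for miR-122, 0.46 to 0.72 for miR-126-3p and 0.36 to 0.46 for miR-21. The calls for miR-122 and miR-21 passed without the CCL4 array of 4 weeks or replicate 1 of CCL4 at 6 weeks and that for miR-126-3p without the first of these, and the other reduced sets did not pass, but without a control the smallest exact p is 0.0476 before adjustment.

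Of 16 other miRNAs known for the contractile or proliferating state of smooth muscle, 11 were tested, 1 was higher, 3 were lower and 7 did not pass, against 13.5% higher and 35.3% lower over all tested miRNAs, so the counts do not set this list apart. The one that rose was miR-31, described in proliferating smooth muscle, with signals of 53.6 to 114 in CCL4 liver and 27.2 to 33.5 in control liver (log2 fold change 0.86, SE 0.16, limma adjusted p = 0.00516). The 3 that fell were miR-146a, known to restrain inflammatory signalling (-0.87, limma adjusted p = 0.0118), miR-22 (-0.68, limma adjusted p = 0.0135) and let-7d (-0.48, limma adjusted p = 0.0295). miR-21 (-0.085), miR-221 (0.10) and miR-125b-5p (-0.065) did not pass. The median over the 11 was -0.19, against -0.32 over all tested miRNAs.

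The falls on this list depended on the scaling. Without scaling miR-31 and miR-221 were higher and none of the 11 was lower, and with the percentile of detected miRNAs 1 was higher and 2 lower. miR-133a, miR-204 and miR-222 were not detected. miR-1 and miR-133b, the markers of striated muscle, were detected on 1 array, the olive oil array of 4 weeks. miR-143 on that array (21.3) lay between the other controls (18.2 and 23.8).

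Among 20 miRNAs of mesenchymal cells, 16 were tested, of which 7 were higher, 1 was lower and 8 did not pass, beside 13.5% higher and 35.3% lower over all tested miRNAs. Their median log2 fold change was 0.17. Without scaling 8 were higher and 0 lower, and with the percentile of detected miRNAs 7 and 0. The higher ones were miR-199a-5p, miR-199b, miR-199b*, miR-214, miR-335-5p, miR-497 and miR-379, and the lower one was let-7c. miR-335-5p and miR-379 were detected on 4 and 3 arrays, with control signals of 0.00252 to 1.49 and -0.900 to 0.666. These lie below the lowest detected signal of every control array, so both passed the detection filter only through CCL4 arrays. Their calls are therefore no support for a rise of the list. miR-214 was detected on 6 arrays, and its lowest control signal, 5.19, is also below the lowest detected signal of every control array. With the percentile of detected miRNAs miR-335-5p did not pass (limma adjusted p = 0.0532). For those detected on every array, the rise was 1.46 for miR-199b* (limma adjusted p = 0.000215), 0.74 for miR-199b, 0.55 for miR-199a-5p and 0.48 for miR-497 (limma adjusted p = 0.0422) on the log2 scale. The value of miR-143, 0.34, lay inside the range of the list. With the scaling of the methods 8 of the 16 lay above it, miR-335-5p and miR-379 among them, and 8 below. With the percentile of detected miRNAs 7 lay above and 9 below.

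Marker miRNAs of other cells are given beside the same shares of all tested miRNAs, 13.5% higher and 35.3% lower. Of 8 hepatocyte miRNAs, 7 were lower and 1, miR-802, was higher (median -0.63), without scaling none was lower, and with the percentile of detected miRNAs 3 were. Their summed signal was 22566 to 43398 in CCL4 liver and 29308 to 36131 in control liver. Neither of the 2 endothelial miRNAs passed, and none of 3 erythroid ones did. Of 10 epithelial miRNAs 4 were tested, with 2 higher and 1 lower, which became 3 and 0 both without scaling and with the percentile of detected miRNAs. Of the higher ones miR-96 was detected on 6 arrays, with a lowest control signal of 5.09, below the lowest detected signal of every control array. Of 6 leukocyte miRNAs 4 were tested, with 1 lower, which was miR-146a. The summed signal of the leukocyte list was 329 to 1375 in CCL4 liver and 340 to 596 in control liver. The 4 pancreatic miRNAs were not detected on any array. The part of other cells in the values of miR-143 was not tested.

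The miRNAs whose scaled level over the 8 arrays was most like that of miR-143, by Pearson's r among 112 others detected on every array, were miR-27a (0.93), miR-322 (0.89), miR-223 (0.87), miR-296-5p (0.85) and miR-125a-5p (0.85). The median r over the 112 was -0.27. The points share the 75th percentile of each array, and without scaling the median r was 0.76 and these 5 ranked 1, 3, 18, 6 and 5. With the percentile of detected miRNAs they ranked 2, 3, 7, 4 and 1.

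All 5 had, like miR-143, their highest scaled level on the CCL4 array of 4 weeks. miR-223, a miRNA of myeloid cells, had a signal of 403 there, against 78.2 to 188 on the other CCL4 arrays and 72.9 to 110 on the controls. The log2 fold change of miR-27a was 0.74, -0.16 and 0.19 in order of week. miR-296-5p and miR-125a-5p, the pair printed above, were the only ones of the 5 past the threshold over all weeks, at 0.39 (limma adjusted p = 0.0480) and 0.86 (limma adjusted p = 0.00532). miR-125b-5p, with the seed of miR-125a-5p, had a value of -0.065 (limma adjusted p = 0.740), and that difference was not tested.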

How the data were processed

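The members and the lists of miRNAs were chosen with earlier results of these data known. Per the file headers, the authors' intensity values are the output of Feature Extraction 10.5.1.1 (protocol miRNA_105_Jan09, mm9), a sum over the probes of a miRNA after background subtraction, and were deposited with arrays not yet scaled to each other. The log2 values deposited beside them held the same signals, with those under 1 set to 1 (4536 values, largest difference 1.11e-06).

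Each array was scaled to the 75th percentile over its 567 mouse miRNAs, values under 0.01 were then raised to it, and log2 was taken. In the methods the floor comes first, which was run as an alternative. The 133 miRNAs called detected on at least 3 arrays were tested with limma 3.58.1 in R 4.3.3. The fit over all weeks had week as a factor (4 residual degrees of freedom). Weekly values and the interaction came from a fit of 6 group means (2 residual degrees of freedom), whose spread is that of the CCL4 pairs of 6 and 8 weeks. With the scaling of the methods, limma pooled that spread fully over the tested miRNAs, which then shared 1 SE within a week. P-values were adjusted over the 133 after Benjamini and Hochberg, and the threshold was 0.05. Both fits were tested on simulated data. Of changes of 1 in log2 the fit over all weeks recovered 96%, with 4.15% false calls, and the 6-week comparison recovered 73.7%. The interaction recovered 92% of changes of 3. No change smaller than 1 was simulated, and no factor shared by all miRNAs of an array, so scaling was not tested by it. The number of arrays limits the precision. No spot was saturated. All arrays shared 1 slide and 1 scan. The study's methods name no batches of RNA extraction or labelling, so no such batch could be blocked.

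Named miRNAs are the members, miR-145*, the smooth muscle list and the 5 most alike by Pearson's r. The other lists and the 5 reference miRNAs of the ratios are named beside them, the latter chosen after values were seen. Sequences were matched to RefSeq by exact name. Alternatives covered scaling, floor, normexp background correction (offset 50), the processed table, detection filters, week term, replicate block, the methods' t-test and leaving out each array. Each probe alone, both arrays of 4 weeks left out, the other scalings of the permutation test and the alternatives for the ratios were added after the data were seen. The other parts of the study, in human biopsies and cultured cells, were not analysed here.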

Additional observations from a re-analysis of the deposited data

How the results depend on the processing

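Over all weeks the log2 fold change of miR-143 was above 0 under all 24 alternatives, and it passed the threshold under 3 of them. These were the percentile of the miRNAs detected on all arrays (0.54), no scaling (1.01) and the fit without replicate 1 of CCL4 at 6 weeks (0.44, limma adjusted p = 0.0401). Leaving out 1 array gave 0.20 to 0.53, and the lowest value came without either array of 4 weeks. At 4 weeks it passed with the percentile (0.92) or median (0.83) of detected miRNAs, with no scaling (1.60), with the first probe alone (0.82) and with only the miRNAs detected on all 8 arrays (0.70, limma adjusted p = 0.0287). Leaving out 1 array of another week left 0.70 with a limma adjusted p between 0.00334 and 0.165, with passes without either CCL4 array or the olive oil array of 6 weeks. The SE was 0.22 and 0.23 without replicate 1 and 2 of CCL4 at 6 weeks, where the spread came from the 8-week pair alone. It was 0.40 without either CCL4 array of 8 weeks. Without the olive oil array of 6 weeks it was 0.31, and what moved the call there was not tested. At 6 weeks a value of 0.00 took a sign above 0 with the percentile of detected miRNAs (0.46), their median (0.023), quantile normalization (0.10), no scaling (0.58), normexp (0.094) and the first probe alone (0.049), and leaving out 1 array gave -0.23 to 0.23, the highest without replicate 1 of CCL4. The 8-week value (0.21 to 1.00 over 19 alternatives) and the interaction (20 alternatives) passed under none. The exact permutation test of the level passed with the percentile of detected miRNAs (0.49, exact p = 0.0179).

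The ratios of miR-143 to miR-122, miR-126-3p, miR-199b* and miR-21 did not pass with quantile normalization (0.32, 0.23, -1.21 and 0.24), with normexp (0.41, 0.032, -0.30 and -0.24) or without both arrays of 4 weeks (0.80, 0.53, -1.26 and 0.35), where the smallest possible exact p is 0.0667. For miR-199b* the exact p before adjustment was 0.0179 with quantile normalization, as with the values reported. The ratio to miR-142-3p became -0.13 with normexp. Leaving out 1 array gave 0.76 to 1.14 for miR-122, 0.46 to 0.72 for miR-126-3p, 0.29 to 0.63 for miR-142-3p, -1.32 to -0.997 for miR-199b* and 0.36 to 0.46 for miR-21, and the ratio to miR-142-3p passed without the CCL4 array of 4 weeks.

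The counts of tested miRNAs, 18 higher and 47 lower, moved to 34 and 0 with no scaling, 10 and 0 with normexp, 5 and 0 when all miRNAs were tested, 11 and 16 without the week term, and 10 and 23 with the methods' t-test after Benjamini-Hochberg adjustment. The counts of 0 lower are from limma, and at an unadjusted p under 0.05 they were 0, 0 and 65. After Bonferroni adjustment the methods' t-test gave 0 and 1, and unadjusted 13 and 61. They were 21 and 10 with the percentile of detected miRNAs, 12 and 18 with quantile normalization, and 13 and 9 without both arrays of 4 weeks. Leaving out 1 array gave 11 to 17 higher and 6 to 62 lower.

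With the replicate number as a block miR-143 had a log2 fold change of 0.30 (limma adjusted p = 0.227), with 12 miRNAs higher and 54 lower. The CCL4 arrays of 6 and 8 weeks with the same number deviated together at r = 0.051. That gave no sign of a pairing, but so few arrays cannot exclude it. miR-145 had no measured level, so none of the alternatives planned for it gave a value. The ratio of miR-145 to miR-143 gave none either.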
